A study of Mus musculus with 10 samples.

Results

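Cells of the adult mouse lung mesenchyme that carried both an Axin2 lineage label and a Pdgfra reporter (Axin2:Pdgfra) were compared with cells of the same mouse line that carried neither (Negative). Each group had 2 libraries of the 10 in the study, which were RNA-seq of FACS-sorted cells with Trizol-extracted RNA. The genotype of both groups was Axin2CreERT2:tdT:PdgfraEGFP. CreERT2 is a recombinase that tamoxifen switches on, here driven by Axin2, so the tdT reporter marks the cells that expressed Axin2 at induction and their descendants, whereas EGFP reports Pdgfra directly. The Axin2 and Pdgfra groups, used below for side-by-side values, carried 1 of the 2 labels each in the same line. Pdgfra library 1 bears the name of the reporter EGFP as its title and is in the Pdgfra group by its lineage label GFP. The Wnt2 group came from another line, Wnt2CreERT2:R26REFYP, and was not compared with the other groups. It entered the gene filter, the estimate of the spread, the correlations between libraries and the figures that show all 10 libraries. The Negative group is defined by the absence of labels and not by a marker of its own. The sources used here do not give the tamoxifen schedule, the antibody gate, the animals' exact age or whether animals were pooled. No label ties the replicate numbers to separate animals. The p-values below therefore rest on a spread between libraries that could be technical only, except between the Negative libraries, which differed in sex.

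The comparison covered 14177 of 14854 genes, those with a log2 value of 6 or more in at least 2 of the 10 libraries. All differences are Axin2:Pdgfra minus Negative, on the deposited log2 scale, with the standard error (SE) of a limma fit to all 10 libraries. A gene was called when its p-value, adjusted over all tested genes by the Benjamini-Hochberg method, was under 0.05. Library values are given for Axin2:Pdgfra libraries 1 and 2 and then for Negative libraries 0 and 2. Unless a sentence says otherwise, the call of each gene named below in this comparison held in each of the 10 fits that left out 1 library. Without the intensity trend and robust steps of limma, 154 of the 238 called genes followed singly lost the call. Pdgfra, Col1a1, Tcf21 and C3 were among them.

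Fibroblasts that express Pdgfra, the receptor for PDGF-A, lie in the alveolar walls and around airways and vessels, where they lay down collagen, elastin and other matrix and send growth factors to the epithelium. Axin2 is a target gene of canonical Wnt signalling and is used as its readout. Pericytes and smooth muscle cells, the mural cells of vessels and airways, are marked by Pdgfrb and by contractile genes, and the alveolar surface is covered by flat type 1 and surfactant-producing type 2 epithelial cells.

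The 4 libraries differed in how many genes sat at the lowest value of the library. That share was 8.6% and 15% in Axin2:Pdgfra libraries 1 and 2, and 10.2% and 18.4% in Negative libraries 0 and 2. The Spearman correlation across genes was 0.807 between the Axin2:Pdgfra libraries, 0.769 between the Negative libraries and 0.652 to 0.732 between libraries of the 2 groups. Axin2:Pdgfra library 1 also reached 0.828 to 0.846 with 3 libraries of other groups (Pdgfra library 2 and both Wnt2 libraries), above its value with its own partner. Xist, expressed from the inactive X of female cells, stood at 17.47 to 17.72 in 3 of the 4 libraries and at 8.57 in Negative library 2, the only 1 of the 4 with Y-linked transcripts (9.73 to 10.74), so the Negative libraries differed in sex. Fits without Negative library 2 are given where they change a call.

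Pdgfra, the gene behind the EGFP label, was measured at 14.91 and 15.21 in the Axin2:Pdgfra libraries and at 12 and 13.34 in the Negative libraries. The groups did not overlap, and the difference was 2.39 ± 0.36 (adjusted p = 0.00135), a 5.23-fold higher level. Axin2 was measured at 12.04 and 9.54 against 10.66 and 10.07. Its groups overlapped, since Axin2:Pdgfra library 2 lay below both Negative libraries, and the difference of 0.43 ± 0.74 had an adjusted p of 0.809 (interval of the difference at the 95% level, -1.17 to 2.02). The transcript of the Cre driver did not separate these libraries, while the lineage label also marks cells that no longer express the gene. Wnt2, not a label of this line, differed by 0.94 ± 0.90 (adjusted p = 0.609).

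Of the 14177 genes, 953 were called (6.72%). Called genes higher in Axin2:Pdgfra cells numbered 472 (3.33%), and called genes lower in them numbered 481 (3.39%). The median difference was 2.93 over the higher genes, -3.89 over the lower genes and 0.08 over all tested genes. At an unadjusted p under 0.05 there were 3018 genes. The libraries of the groups did not overlap in any of the 953 called genes, and they did not overlap in 43.6% of all tested genes. A lack of overlap, where given for a called gene below, therefore adds nothing to its call. Centring each library on 28 housekeeping genes moved the median of all tested genes from 0.08 to -0.18 and changed the split to 321 higher and 558 lower. The count depended on single libraries. Without Axin2:Pdgfra library 2 it was 519, with 213 higher and 306 lower. Without Axin2:Pdgfra library 1 the higher count was 239, without Negative library 0 it was 808, and without Negative library 2 the lower count was 275. In bulk RNA, fewer cells of a type and less RNA per cell cannot be told apart.

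**Figure D1:**
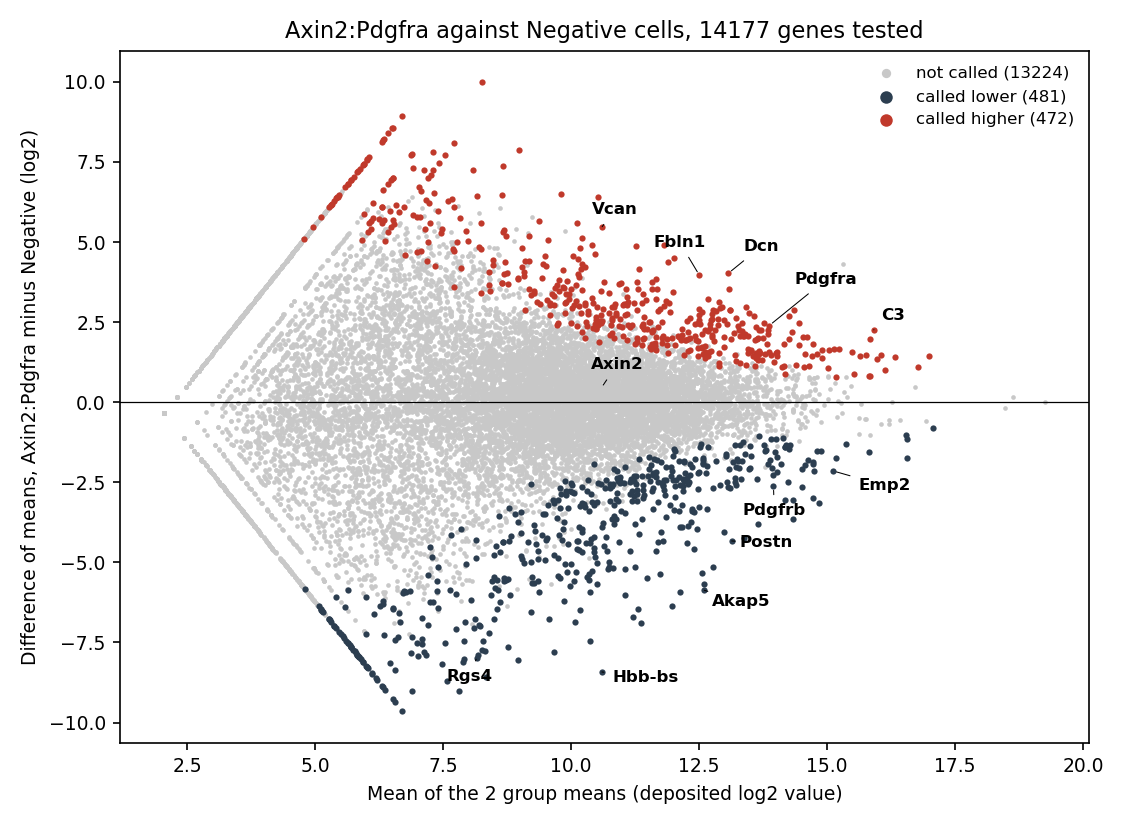
Difference of group means, Axin2:Pdgfra minus Negative (log2, vertical axis), against the mean of the 2 group means (deposited log2 value, horizontal axis), 1 point for each of 14177 genes. Red points are the 472 genes called higher and dark points the 481 called lower; the diagonal edges at the left are genes at the lowest value in both libraries of a group.

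The 12 largest called differences in each direction were taken among genes whose higher group had a mean of 10 or more, with no library at its lowest value. No overlap between the groups was also required, which every called gene met. On the higher side they included several secreted and matrix-related genes. Serpinf1, which encodes the secreted anti-angiogenic protein PEDF, was at 13.97 and 13.51 against 5.66 and 8.98, a difference of 6.42 ± 1.0 (adjusted p = 0.00166). Vcan, the large matrix proteoglycan versican, was at 13.40 and 13.28 against 9.26 and 6.47 (5.48 ± 0.77, adjusted p = 0.000725). In both genes the 2 Axin2:Pdgfra libraries lay close together and the Negative libraries were low and far apart. Lag3, best known as an inhibitory receptor of T cells, was at 11.34 and 11.42 against 4.32 and 5.55 (6.44 ± 1.13, adjusted p = 0.00331). Cygb, the globin cytoglobin that marks several fibroblast types, was at 12.92 and 12.87 against 9.07 and 5.55 (5.58 ± 1.03, adjusted p = 0.00458). Both groups again stood apart in these 2 genes. Of the other 8 on the higher side, Adm, Srpx2 and Ptger2 each lost the call without 1 Axin2:Pdgfra library: Adm without library 1 (adjusted p = 0.0518), and Srpx2 (0.107) and Ptger2 (0.0627) without library 2. Gfpt2, Ccl11, Pdgfrl, Shank1 and Cass4 lost it without either of 2 or 3 libraries, always including Axin2:Pdgfra library 1, with adjusted p of up to 0.12, 0.0887, 0.129, 0.15 and 0.0919.

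On the lower side the 12 included AI661453 (-8.58 ± 1.42), the haemoglobin gene Hbb-bs (-8.42 ± 1.14), the synaptic adhesion gene Clstn2 (-7.97 ± 1.04), the pericyte gene Rgs4 (-7.90 ± 0.95) and the interleukin-18 receptor gene Il18r1 (-7.81 ± 0.66). Il18r1 was at 5.5 and 6.01 in the Axin2:Pdgfra libraries and at 13.50 and 13.62 in the Negative libraries (adjusted p = 9.22e-05), with the libraries of each group close together. Among the 12 stood 4 genes best known from epithelia: Lamb3, a chain of laminin-332, the receptor gene Erbb3, the cornified-envelope gene Scel and the nonmuscle myosin gene Myh14, with differences of -7.76 ± 1.21, -7.74 ± 1.20, -7.63 ± 1.35 and -7.45 ± 0.80. Calls of the haemoglobin gene Hba-a2 (-8.05 ± 1.98) and of Trpc6 (-7.46 ± 1.58) depended on libraries: that of Hba-a2 ended without any 1 of the 4 (up to 0.121), and that of Trpc6 without Axin2:Pdgfra library 1 (0.0827) or Negative library 2 (0.0583).

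**Figure D2:**
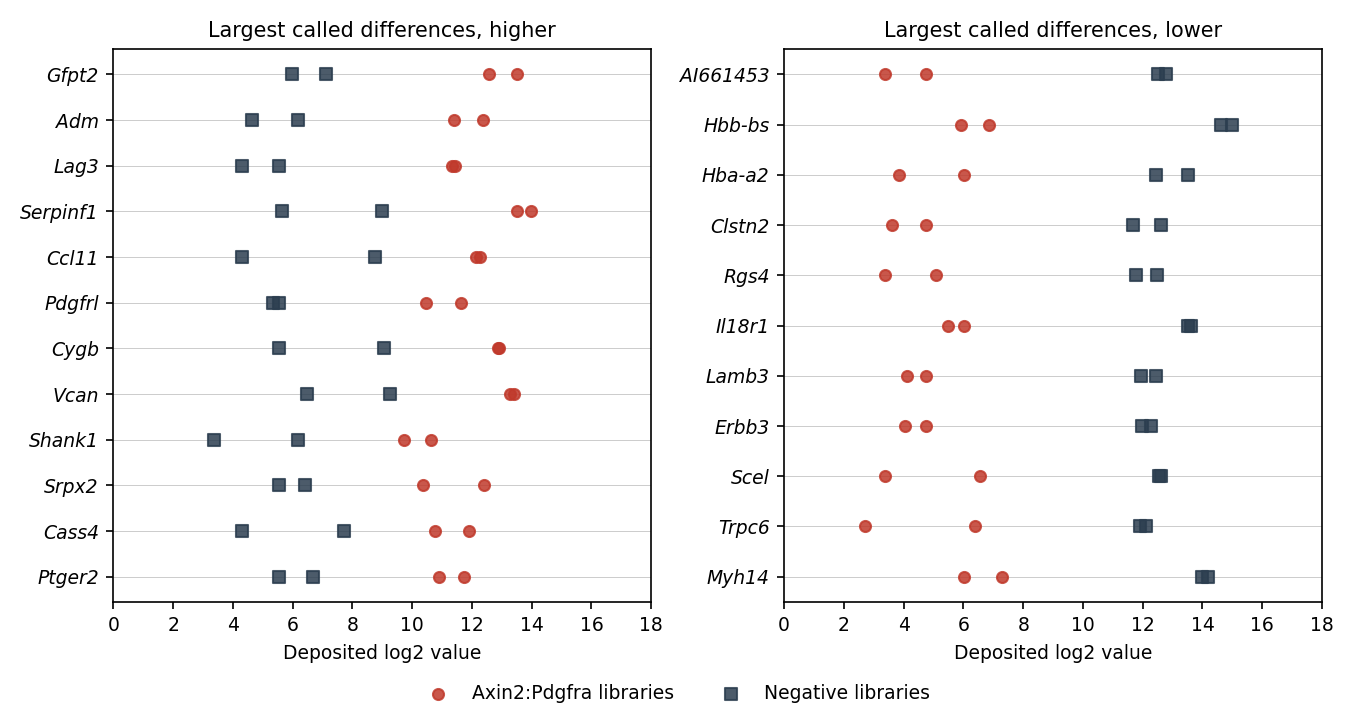
Deposited log2 values of called genes with the largest differences in each direction (left, 12 higher in Axin2:Pdgfra; right, 11 lower), 1 row per gene, with the 2 Axin2:Pdgfra libraries as red circles and the 2 Negative libraries as dark squares. In each row the libraries of the groups are separated, as they are in every called gene. On the higher side the Negative libraries of Ccl11, Serpinf1, Cygb and Vcan lie apart from each other.

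Some genes stand in more than 1 of the lists below, so the list counts are not independent. Examples are Notch3, Pdgfrb and Postn, also in the pericyte list, and Col4a3 and Col4a4, also in the alveolar type 1 list. Serping1 and Igfbp4 are also in the adventitial list, and Itga8, Tcf21, Bmp3 and Fgfr4 in the alveolar fibroblast list. Hhip is also in the contractile list, and Ltbp1 and Ltbp4 are in the TGF-beta list. These examples are not complete. Genes of 2 kinds of lung fibroblast were higher in Axin2:Pdgfra cells. Of 28 tested genes of alveolar fibroblasts and lipofibroblasts, 14 rose and none fell (median difference 1.47, against 0.08 over all tested genes), and of 22 genes of adventitial fibroblasts, which surround vessels and airways, 13 rose and none fell (median 1.92). The first count was 8 without Axin2:Pdgfra library 1 and 9 without either Axin2:Pdgfra library 2 or Negative library 0. Itga8, the integrin chain that pairs with nephronectin in the alveolar wall, was at 15.74 and 15.85 against 13.28 and 12.58 (2.87 ± 0.26, adjusted p = 9.22e-05). Tcf21, a transcription factor of lipofibroblasts, was at 13.61 and 13.33 against 10.45 and 10.26 (3.11 ± 0.48, adjusted p = 0.00145). The values of each group lay within 1 log2 unit of each other in both genes, well short of the other group. Macf1, a cytoskeletal linker, was at 17.72 in both Axin2:Pdgfra libraries and at 16.39 and 16.14 in the Negative libraries (1.45 ± 0.18, adjusted p = 0.000347). Cdh11, a cadherin of mesenchymal cells, rose by 2.88 ± 0.34 (adjusted p = 0.000289).

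Among adventitial genes, Dcn, the collagen-binding proteoglycan decorin, was at 15.14 and 15 against 11.04 and 11.07 (4.02 ± 0.54, adjusted p = 0.000525). Col14a1, a fibril-associated collagen used to name this fibroblast type, was at 14.34 and 13.80 against 9.76 and 9.63 (4.37 ± 0.56, adjusted p = 0.000437). C3, the central complement component, was at 17.04 in both Axin2:Pdgfra libraries and at 14.62 and 14.95 in the Negative libraries (2.26 ± 0.22, adjusted p = 9.22e-05). All 3 separated the groups by more than the distance between libraries of a group. Clec3b and Igfbp4 rose by 2.49 ± 0.48 and 2.41 ± 0.42. Pi16, a marker of adventitial progenitors, was called at 4.92 ± 1.3 but lost the call without any 1 of 7 libraries, both Axin2:Pdgfra libraries and Negative library 0 among them (adjusted p up to 0.152). Dpt, Ccl11 and Pcolce2 likewise lost their calls without Axin2:Pdgfra library 1 or without Negative library 0. The 9 members of the adventitial list that were not called were Ly6a, Ly6c1, Cd34, Il33, Sfrp2, Dpp4, Cd248, Entpd2 and Adh7. Of these, Ly6a was at 13.90 and 13.12 against 13.58 and 14.08, and its groups overlapped. The lipid-handling genes of the lipofibroblast list, Plin2, Lpl, Fabp4, Fabp5 and Pparg, were not called, with adjusted p of 0.138 to 0.969.

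Many genes of fibril and bead collagens and of small proteoglycans rose, whereas basement membrane genes, given below, fell more often than they rose. Of 16 tested collagen chains of fibrils and beaded filaments, 9 rose and none fell (median 2.02), and of 10 small leucine-rich proteoglycans, 6 rose and none fell (median 1.71). Col1a1, the alpha-1 chain of type I collagen, was at 15.16 and 14.77 against 12.48 and 12.95 (2.25 ± 0.33, adjusted p = 0.00109). Col3a1, which copolymerizes with it, was at 15.95 and 15.41 against 12.84 and 13.57 (2.47 ± 0.38, adjusted p = 0.00149). Both chains were 4.75-fold and 5.56-fold higher, with no overlap between groups. Lum, the proteoglycan lumican, was at 13.84 and 12.65 against 3.85 and 2.67, the last being the lowest value of that library (difference 9.99 ± 1.19, adjusted p = 0.000300). Col1a2, Col6a2 and Col6a3 rose by 2.20 ± 0.27, 1.79 ± 0.28 and 1.83 ± 0.31, and Ogn, encoding osteoglycin, by 2.13 ± 0.31.

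Elastic-fibre genes rose in 8 of 17 tested members and fell in 1 (median 1.96). Fbln1, the matrix glycoprotein fibulin-1, was at 14.52 and 14.45 against 10.43 and 10.62 (3.96 ± 0.36, adjusted p = 9.22e-05). Emilin1, an elastin-interface protein, was at 12.50 and 13.06 against 8.91 and 9.24 (3.70 ± 0.54, adjusted p = 0.00105). These 2 genes were 15.5-fold and 13-fold higher. Fbn1, the main microfibril protein, rose by 1.66 ± 0.25, and Ltbp1 and Ltbp4, which tether latent TGF-beta to microfibrils, by 2.27 ± 0.30 and 1.56 ± 0.23. The exception was Ltbp2, at 12.42 and 12.51 against 15.02 and 14.03 (-2.06 ± 0.45, adjusted p = 0.0127), a call that ended without either Axin2:Pdgfra library or without Negative library 0 (0.0621 to 0.0743).

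Of 19 matricellular and adhesion proteins, 10 rose and 2 fell (median 1.42). Without Axin2:Pdgfra library 2, 6 rose. Thbs1, thrombospondin-1, was at 15.56 and 15.66 against 13.09 and 12.73 (2.70 ± 0.28, adjusted p = 0.000127), and fibronectin, Fn1, rose by 1.42 ± 0.23. Ccn5 rose by 3.55 ± 0.46. The 2 that fell were Postn, the periostin gene of myofibroblasts and mural cells, at 11.44 and 10.50 against 15.92 and 14.68 (-4.33 ± 0.40, adjusted p = 9.22e-05), and the osteopontin gene Spp1. Spp1 was at 1.70, the lowest value of the library, and 4.74 against 12.88 and 9.33 (-7.89 ± 1.77), and its call ended without Axin2:Pdgfra library 1 (0.0953) or Negative library 0 (0.0983). Matrix proteases and their inhibitors rose in 8 of 23 and fell in 1 (Mmp15; median 2.48), led by Adamts1, Mmp2, Adamts15 and Adamts9 with differences of 3.14 ± 0.35, 2.98 ± 0.37, 3.84 ± 0.65 and 2.10 ± 0.37. That count was 5 and 4 without Axin2:Pdgfra libraries 1 and 2, and the call of Mmp15 ended without Axin2:Pdgfra library 2 or Negative library 2 (up to 0.0701). Collagen-processing enzymes rose in 5 of 18 (median 0.86). Only the cross-linking oxidase Loxl1 (3.01 ± 0.50) kept its call in every fit with 1 library left out, and 2 were called without either Axin2:Pdgfra library and 3 without Negative library 0.

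**Figure D3:**
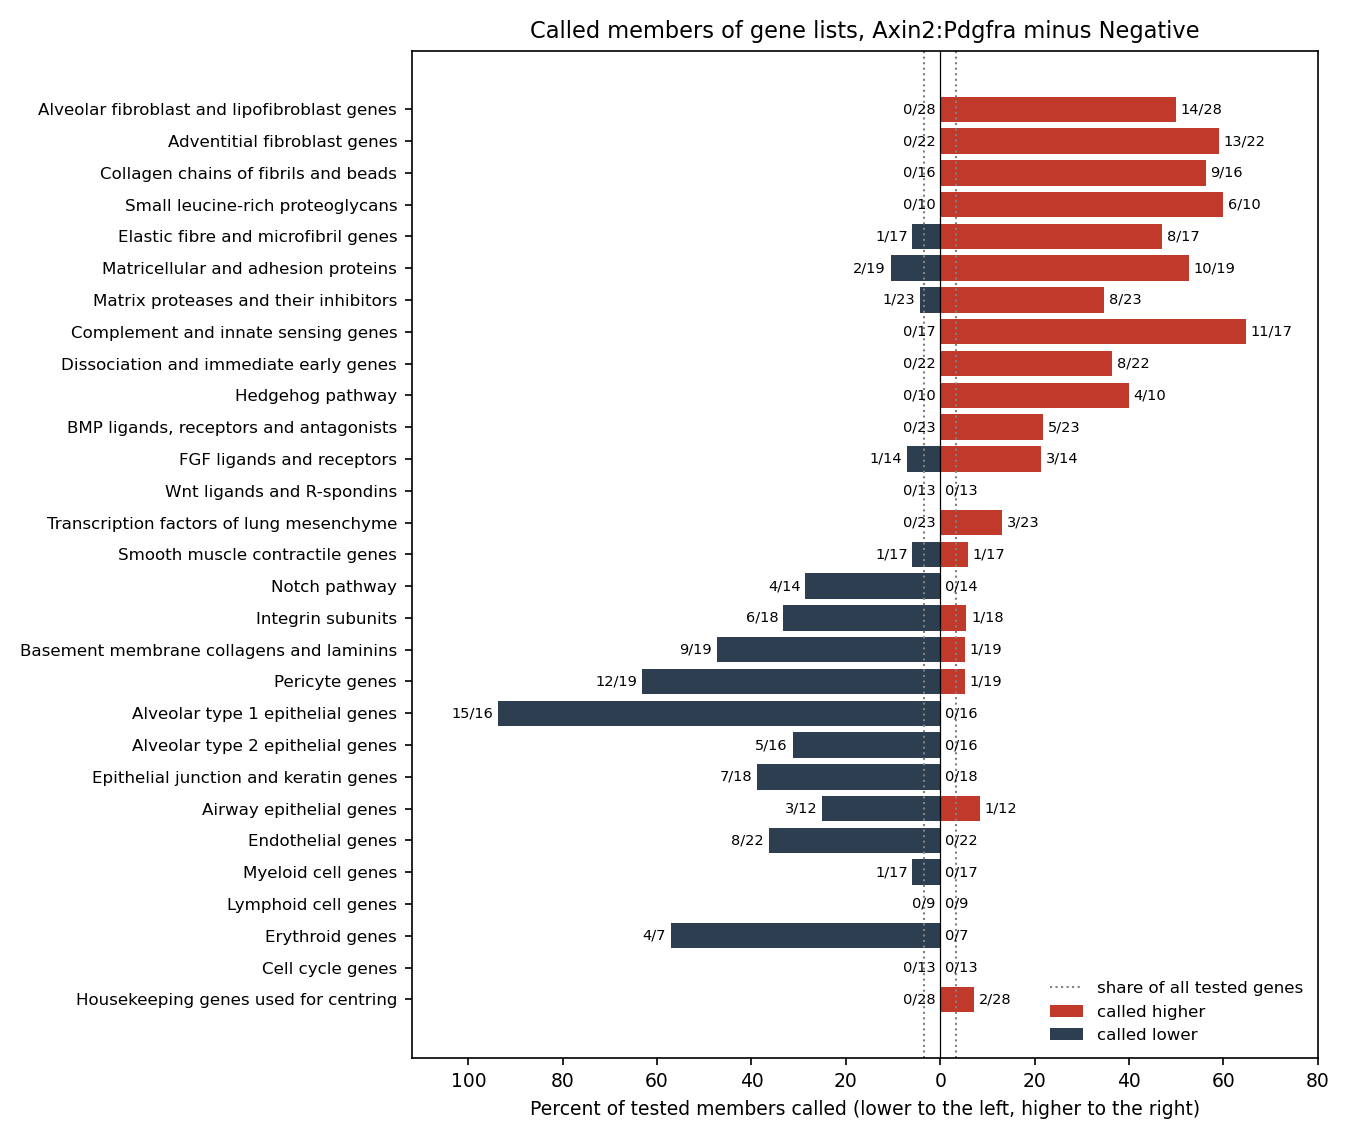
Share of tested members of 29 gene lists that were called higher (red, to the right) or lower (dark, to the left) in Axin2:Pdgfra cells, in percent, with the number called over the number tested. Dotted lines mark the shares among all 14177 genes, 3.33% and 3.39%. Fibril collagen, proteoglycan, elastic-fibre, fibroblast and complement lists extend to the right, and the basement membrane list mainly to the left. The alveolar type 1 list, with 15 of 16 lower, extends furthest to the left.

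Among PDGF genes the receptors moved in opposite directions, and of 7 tested 3 rose and 2 fell. The sort itself selected for Pdgfra, the gene behind the EGFP label, so its rise is not a finding about the pathway. Pdgfrb, the receptor of pericytes, was at 12.61 and 12.67 against 15.49 and 15.02 (-2.62 ± 0.31, adjusted p = 0.000263), the reverse of the order of Pdgfra above. Pdgfa, the ligand of the alpha receptor, was at 7.37 and 8.03 against 12.39 and 11.29 (-4.14 ± 0.68, adjusted p = 0.00223), 17.6-fold lower. The libraries of each group lay within about 1 log2 unit in both genes. Pdgfd was called higher at 9.35 and 9.32 against 3.85 and 2.67, and Pdgfrl at 11.63 and 10.46 against 5.35 and 5.55, but both calls ended without either Axin2:Pdgfra library or Negative library 2 (adjusted p of up to 0.109 and 0.129), which left Pdgfra as the 1 that rose. Pdgfb differed by -3.45 ± 1.03 (adjusted p = 0.0616). Pdgfc was at 7.80 and 10.30, with both Negative libraries at their lowest value (adjusted p = 0.0982).

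Hedgehog signals reach the mesenchyme from the epithelium through the receptor Ptch1 and its coreceptors and act through Gli transcription factors. Of 10 tested genes of the pathway, 4 rose and none fell (median 2.26). The decoy receptor and target gene Hhip was at 14.79 and 13.76 against 8.61 and 10.09 (4.92 ± 0.73, adjusted p = 0.00121). The coreceptor Boc was at 13.33 and 13.55 against 10.92 and 8.48 (3.74 ± 0.66, adjusted p = 0.00356). The target and effector Gli1 was at 10.29 and 10.60, with both Negative libraries listed at the lowest value (adjusted p = 0.00618). In these 3 genes every Axin2:Pdgfra library lay above every Negative library. The coreceptor Gas1 was called at 2.72 ± 0.73 (adjusted p = 0.0386), a call that ended without any 1 of the 10 libraries (up to 0.164). Ptch1 differed by 0.71 ± 0.40 (adjusted p = 0.341) and Gli2 by 1.79 ± 0.75 (0.185).

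Of 14 genes for FGF ligands, receptors and their Sprouty feedback inhibitors, 3 rose and 1 fell (median 1.28), and without Axin2:Pdgfra library 2, or with housekeeping centring, 1 rose. The receptor Fgfr4 was at 12.80 and 13.38 against 9.81 and 9.59 (3.39 ± 0.47, adjusted p = 0.000713). The ligand Fgf1 was at 11.17 and 10.21 against 13.98 and 14.25 (-3.43 ± 0.53, adjusted p = 0.00147). Both differences exceeded the distance between the libraries of a group. The other 2 calls, Fgfr1 (2.07 ± 0.51) and Fgf2 (4.73 ± 1.29), ended without Axin2:Pdgfra library 2, at adjusted p of 0.219 and 0.300, among other libraries: Negative library 2 (0.130) for Fgfr1, and for Fgf2 Negative library 0 (0.111) and each of the 6 libraries of the other groups (0.0514 to 0.0758). Fgf10 and Fgf7, ligands for the epithelial receptor Fgfr2, were not called, with differences of 1.49 and 1.81 (adjusted p = 0.182 and 0.147).

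BMP genes rose in 5 of 23 with none lower (median 0.77), and in 2 under housekeeping centring, 3 without Axin2:Pdgfra library 1 or Negative library 2, and 2 without Axin2:Pdgfra library 2. The ligand Bmp3 was at 13.23 and 13.13 against 10.01 and 10.55 (2.90 ± 0.41, adjusted p = 0.000725). The groups were apart by more than the distance between the libraries of a group. Bmp4 was at 13.04 and 10.69 against 12.41 and 11.28, with overlapping groups (0.02 ± 0.65). TGF-beta genes rose in 7 of 17 and fell in 1 (median 0.53). Without Axin2:Pdgfra library 1 the number that rose was 4, and without library 2 or with housekeeping centring it was 3. The coreceptor Tgfbr3 rose by 2.08 ± 0.35 (adjusted p = 0.00280) with Ltbp1 and Ltbp4 above, and the ligand Tgfb1 did not separate the groups (7.76 and 9.85 against 8.91 and 8.68).

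In the IL6 family, Osmr, the oncostatin M receptor, was at 14.23 and 14.00 against 11.68 and 11.08 (2.74 ± 0.35, adjusted p = 0.000386). Il6 itself was at 9.99 and 9.89 against 3.36 and 2.67, the last a lowest value, and its call (adjusted p = 0.0142) ended without Axin2:Pdgfra library 1 (0.0653) or 2 (0.0700). Of 13 genes 3 rose, and 1 without either of those libraries. The receptor chain shared by the family, Il6st, and the transducer Stat3 differed by 0.76 and 1.14 (adjusted p = 0.0908 and 0.111).

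None of 13 Wnt ligands, R-spondins and secretion factors was called in either direction (median 0.94), and at an unadjusted p under 0.05 the list held 4 higher and 3 lower genes. Wnt5a was at 12.31 and 11.53 against 10.56 and 10.54 (1.37 ± 0.58, adjusted p = 0.190). Wnt2b was at 10.47 and 10.87 against 7.37 and 5.55 (4.21 ± 1.21, adjusted p = 0.0526). Both stood above the Negative libraries without passing the threshold. Among 15 Wnt targets and receptors, Lgr5, an R-spondin receptor, was called higher at 11.52 and 9.96 against 3.36 and 2.67, and the ubiquitin ligase Rnf43 was called lower, with both Axin2:Pdgfra libraries at their lowest value against 9.76 and 10.53. Both calls ended without either Axin2:Pdgfra library or Negative library 2 (up to 0.105 and 0.0830), and without Negative library 0 the list of Wnt targets held 3 higher and 2 lower. Of 8 secreted Wnt antagonists 3 were called higher (Igfbp4, Dkk3 and Sfrp4; median 3.0), of which Igfbp4 kept the call in all 10 fits with 1 library left out; Dkk3 lost it in 7 of them and Sfrp4 in 8 (up to 0.182 and 0.167).

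Some Notch receptors and targets were lower in Axin2:Pdgfra cells. Of 14 tested members 4 fell, none rose, and 13 had a negative difference (median -2.49). Notch3, the receptor of mural cells, was at 10.79 and 9.56 against 14.86 and 13.28 (-3.90 ± 0.55, adjusted p = 0.000841). The target gene Hey1 was at 7.21 and 5.77 against 10.5 and 11.17 (-4.35 ± 0.84, adjusted p = 0.00630). In both genes the groups were separated by more than 2 log2 units. Notch1 fell by 1.78 ± 0.39, a call that ended without Axin2:Pdgfra library 2 (0.0846). Nrarp was called at -4.02 ± 1.01 and lost the call without Axin2:Pdgfra library 2 (0.128), either Negative library or either Axin2 library. Only 1 of the 14 was called when the fit was restricted to the 4 libraries compared.

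Growth factors for epithelium and endothelium split. Vegfa and Sema3e, given here, are also in the alveolar type 1 list below. The lymphangiogenic factor Vegfd was at 14.27 and 14.29 against 10.86 and 11.28 (3.21 ± 0.35, adjusted p = 0.000147), and Vegfa was at 13.57 and 13.37 against 15.73 and 15.37 (-2.07 ± 0.34, adjusted p = 0.00227). Each group was tight in both genes and they moved in opposite directions. The EGF-family ligand Hbegf was at 8.66 and 5.41 against 12.47 and 12.44 (-5.42 ± 0.91, adjusted p = 0.00245), and the guidance factor Sema3e at 7.09 and 6.74 against 14.21 and 12.61 (-6.49 ± 0.80, adjusted p = 0.000358). Both were lower in each Axin2:Pdgfra library than in each Negative library. In all, 2 of 21 rose and 4 fell, with a median of 0.19 that became -0.07 under housekeeping centring. Igf1, the other gene that was called higher (2.45 ± 0.60), lost the call without Axin2:Pdgfra library 1 (0.169) or Negative library 0 (0.120).

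**Figure D4:**
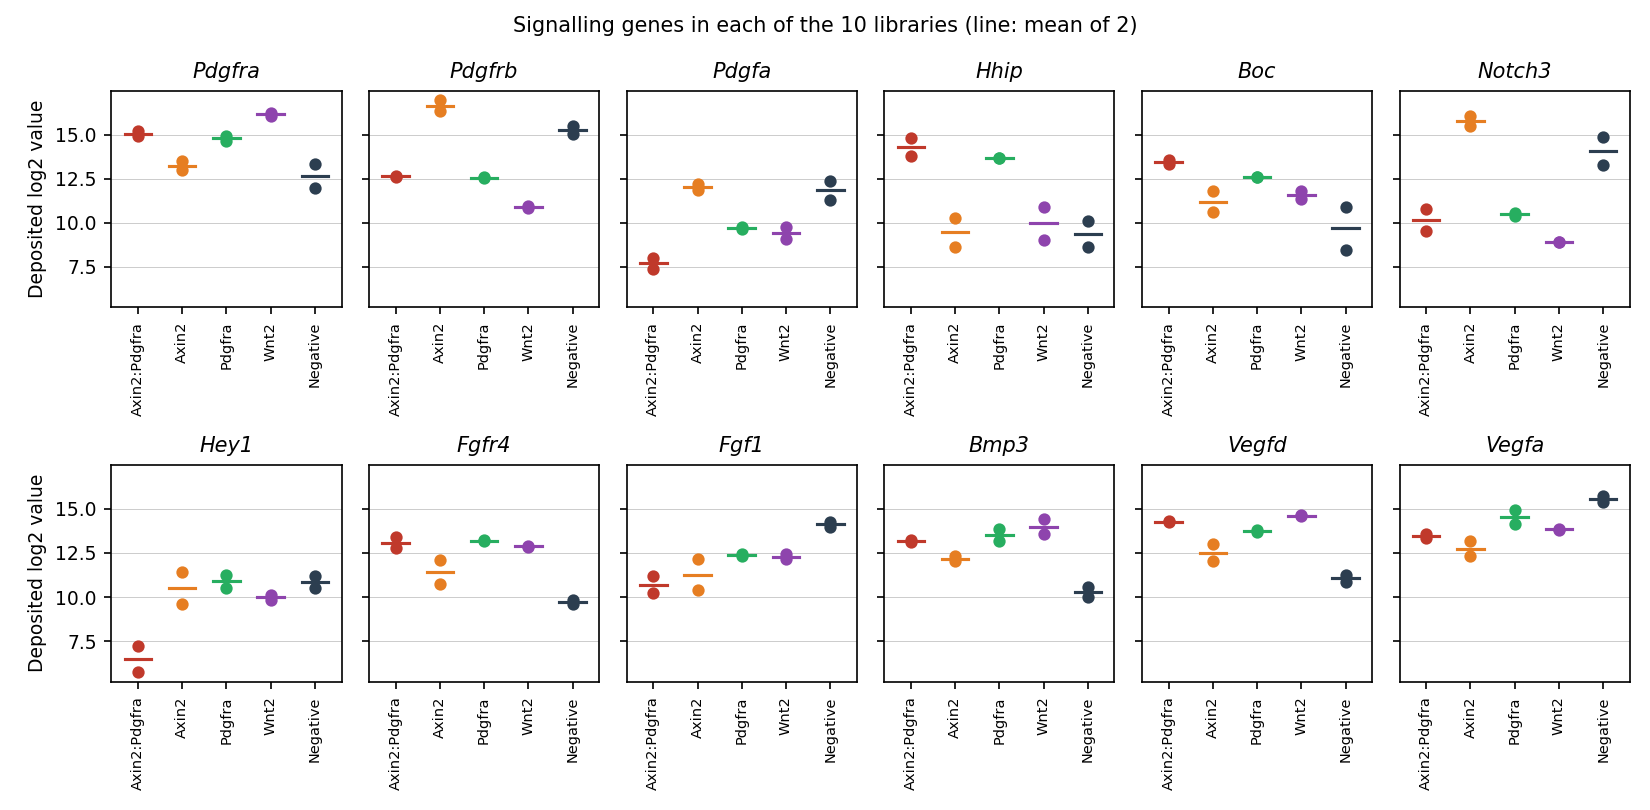
Deposited log2 values of 12 signalling genes in all 10 libraries, 1 point per library and a line at the mean of each group's 2 libraries. Pdgfra, Hhip, Boc, Fgfr4, Bmp3 and Vegfd are higher in both Axin2:Pdgfra libraries than in both Negative libraries; Pdgfrb, Pdgfa, Notch3, Hey1, Fgf1 and Vegfa are lower.

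Complement genes were among the lists with the largest shares of called members: 11 of 17 rose and none fell (median 2.26), with 7 called when only the 4 libraries compared were fitted. C4b, which encodes complement component C4, was at 14.37 and 14.16 against 11.49 and 11.88 (2.58 ± 0.33, adjusted p = 0.000441). C7, a component of the membrane attack complex, rose by 1.98 ± 0.35. The C1 inhibitor gene Serping1 was at 15.97 and 16.17 against 14.52 and 14.29 (1.67 ± 0.21, adjusted p = 0.000376). No Negative library reached an Axin2:Pdgfra library in these genes. Tlr4, the receptor for lipopolysaccharide, was at 9.63 and 9.67 against 4.32 and 2.67 (adjusted p = 0.00306). Among 17 stromal chemokines and cytokines 3 rose and none fell; the neutrophil chemokine Cxcl1 (2.77 ± 0.50, adjusted p = 0.00416) kept its call, Csf1 lost it without Axin2:Pdgfra library 1 (0.141) or Negative library 2 (0.0897), and Ccl11 is given above.

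Immediate early genes, which are switched on within minutes by growth factors or by tissue dissociation, also rose. Of 22 tested, 8 rose and none fell (median 1.05), and 6 rose under housekeeping centring. Nr4a1, an orphan nuclear receptor, was at 14.26 and 14.38 against 12.21 and 12.31 (2.06 ± 0.29, adjusted p = 0.000725). Egr1 was at 16.74 and 16.85 against 15.08 and 15.58 (1.46 ± 0.19, adjusted p = 0.000494), and Fos at 15.35 and 15.49 against 14.08 and 13.92 (1.43 ± 0.25, adjusted p = 0.00336). The Axin2:Pdgfra libraries lay within 0.2 log2 units of each other in these 3 genes and above both Negative libraries. Zfp36 and the phosphatase gene Dusp1 rose by 1.5 ± 0.24 and 1.01 ± 0.18. The calls of Fosb, Junb and Btg2 ended without Axin2:Pdgfra library 2 (0.0561), library 1 (0.0664), and either of these or Negative library 0 (up to 0.122). Jun was not called, at 15.10 and 15.16 against 13.97 and 14.77 (adjusted p = 0.119). All 8 lost the call when limma was run without the intensity trend and robust steps. Whether handling of the cells had a part in these differences was not tested.

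To show what the regions before these genes look like, the 250 bases upstream of the start of Fos, Nr4a1 and Dusp1 are printed 5′ to 3′, read from the RefSeq promoter table for build GRCm38.p6 (the expression values rest on mm9). Capitals mark each match to the half-site of the cyclic AMP response element (CRE), TGACG or its reverse complement CGTCA. The windows are chr12:85473640-85473889 on the plus strand for Fos, chr15:101266596-101266845 on the plus strand for Nr4a1, and chr17:26508473-26508722 on the minus strand for Dusp1.
Fos: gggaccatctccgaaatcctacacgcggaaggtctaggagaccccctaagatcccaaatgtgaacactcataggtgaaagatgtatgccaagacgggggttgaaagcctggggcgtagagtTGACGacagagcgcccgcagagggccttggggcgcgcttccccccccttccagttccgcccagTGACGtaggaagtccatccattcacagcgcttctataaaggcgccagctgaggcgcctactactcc
Nr4a1: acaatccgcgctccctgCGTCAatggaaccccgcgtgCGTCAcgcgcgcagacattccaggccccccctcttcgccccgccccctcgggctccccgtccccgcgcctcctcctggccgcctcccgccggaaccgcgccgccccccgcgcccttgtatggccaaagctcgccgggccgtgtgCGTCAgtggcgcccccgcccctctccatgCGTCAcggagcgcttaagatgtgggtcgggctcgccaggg
Dusp1: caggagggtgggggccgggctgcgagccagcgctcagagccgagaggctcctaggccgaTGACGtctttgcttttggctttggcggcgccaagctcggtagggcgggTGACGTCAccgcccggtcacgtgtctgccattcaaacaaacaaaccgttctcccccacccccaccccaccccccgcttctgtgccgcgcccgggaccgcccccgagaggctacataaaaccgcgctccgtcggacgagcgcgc
Fos holds 2 half-sites and Nr4a1 holds 4. Dusp1 holds 3, of which 2 overlap as the full palindrome TGACGTCA. Of the 8 genes that rose, 7 had an entry in the table and 6 of these 7 held at least 1 half-site, against 4 of 11 immediate early genes that were not called and 26.3% of 10344 tested genes with an entry (17.8% of all 32851 windows). The full CRE was in 2 of the 7 (2.68% of tested genes). The AP-1 site TGANTCA was in none of the 7 (4.34%), and the TATA box letters TATAAA were in 1, Fos (6.54%). These 4 motifs were searched on both strands after the values were known. A match is a description of the letters, not evidence of a bound site.

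Of the lists described here, alveolar type 1 epithelial genes had the largest share of called members: 15 of 16 tested fell, none rose, and the median difference was -4.72. The median level of the list was 9.91 and 10.09 in the Axin2:Pdgfra libraries and 15.21 and 15.19 in the Negative libraries, although both groups are labelled as mesenchyme. Akap5, an anchoring protein of protein kinase A, was at 9.85 and 9.48 against 15.48 and 15.60 (-5.87 ± 0.56, adjusted p = 9.22e-05). Cldn18, a tight-junction claudin of alveolar epithelium, was at 11.73 and 10.78 against 15.53 and 15.48 (-4.25 ± 0.43, adjusted p = 0.000108). The membrane protein gene Emp2 was at 14.10 and 13.98 against 16.17 in both Negative libraries (-2.14 ± 0.23, adjusted p = 0.000147). In these genes the Negative libraries were nearly equal and far above the others. The textbook markers Ager and Hopx, named after their values were seen, were at 11.15 and 12.34 against 15.77 and 15.32 (-3.80 ± 0.47) and at 10.21 and 10.73 against 14.27 and 14.60 (-3.96 ± 0.55), and Pdpn was not called (-2.98 ± 0.90, adjusted p = 0.0633). No member of the list was at the lowest value in any of the 4 libraries. Whether type 1 cells in the Negative sort account for these differences was not tested.

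Other epithelial genes followed in part. Of 18 epithelial junction and keratin genes 7 fell and none rose (median -4.50), among them Nkx2-1, the transcription factor of lung epithelium, at 5.75 and 6.12 against 12.42 and 12.57 (-6.56 ± 1.04, adjusted p = 0.00180), and Cdh1, E-cadherin, at 10.07 and 7.40 against 14.82 and 13.66 (-5.5 ± 0.82, adjusted p = 0.00122). Both were high in each Negative library and low in each Axin2:Pdgfra library. Epcam, by contrast, was at 10.06 and 4.74 against 8.77 and 8.88, so its groups overlapped. Type 2 genes fell in 5 of 16 (median -1.68), all 5 of which were lost without Negative library 2. The list median was 10.93 and 10.98 against 12.04 and 12.16. The surfactant gene Sftpc was at 13.73 and 13.31 against 14.55 and 15.43 (-1.47 ± 0.36, adjusted p = 0.0239, and 0.172 without Negative library 2). Without Axin2:Pdgfra library 1 or 2, 2 type 2 genes were called. Of 12 airway genes 3 fell, of which Sec14l3 (-5.14 ± 0.59) and Cbr2 (-3.21 ± 0.58) kept the call and Scgb1a1 lost it without Axin2:Pdgfra library 1 (0.150) or Negative library 2 (0.117). The gene called higher in that list, Aldh1a1, is also expressed outside the airway and lost its call in 9 of the 10 fits with 1 library left out (up to 0.262).

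Basement membrane genes fell in 9 of 19 and rose in 1 (median -1.33); without Negative library 0, 4 rose. The type IV collagen chain Col4a3, found with Col4a4 in the alveolar basement membrane, was at 9.97 and 9.56 against 15.30 and 15.56 (-5.67 ± 0.51, adjusted p = 9.22e-05). Lama3, the alpha chain of laminin-332, was at 10.54 and 11.40 against 15.22 and 14.80 (-4.04 ± 0.50, adjusted p = 0.000358). The ubiquitous chains Col4a1 and Col4a2 fell by 1.96 ± 0.25 and 2.15 ± 0.25. All 4 chains separated the groups. The exception was Lama4, a laminin chain of vessels and mesenchyme, at 14.53 and 14.93 against 12.96 and 12.84 (1.83 ± 0.25, adjusted p = 0.000725). Of 18 integrin subunits 6 fell and 1, Itga8, rose (median -0.56). The laminin-binding chain Itga3 was at 8.77 and 9.32 against 14.66 and 14.14 (-5.35 ± 0.56, adjusted p = 0.000127), and the collagen-binding chain Itga1 was at 11.56 and 9.77 against 14.64 and 13.50 (-3.41 ± 0.53, adjusted p = 0.00162). The number that fell was 3 without Axin2:Pdgfra library 1 or Negative library 2. The common beta chain Itgb1 was level, at 14.45 and 14.54 against 14.57 and 14.53.

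Pericyte genes fell in 12 of 19 and rose in 1 (median -3.98). Rgs4, a regulator of G-protein signalling, was at 3.36 and 5.08 against 12.49 and 11.76 (adjusted p = 0.000302). Pdzd2 was at 13.43 and 13.11 against 16.85 and 15.95 (-3.13 ± 0.30, adjusted p = 9.22e-05), and the adhesion molecule gene Mcam at 8.72 and 10.54 against 14.14 and 13.81 (-4.34 ± 0.52, adjusted p = 0.000300). The groups were far apart in these 3 genes. Cspg4, which encodes NG2, fell by 4.64 ± 0.79, and Higd1b by 7.07 ± 1.15. Rgs5 was not called, at 10.52 and 10.33 against 13.14 and 10.89. Kcnj8, the gene that went the other way (4.23 ± 1.08), lost the call without either Axin2:Pdgfra library, Negative library 2 or Axin2 library 1 (up to 0.170) and under housekeeping centring. Smooth muscle contractile genes did not follow, with 1 of 17 lower (Actc1) and 1 higher (Hhip; median -0.53). The defining member Acta2 was at 13.65 and 11.80 against 14.35 and 12.09 and Myh11 at 11.57 and 10.35 against 13.28 and 10.10, with overlapping groups in both. The call of Actc1 (-5.51 ± 1.11) ended without Axin2:Pdgfra library 2 or Negative library 0 (up to 0.0610), and 2 contractile genes were lower without Negative library 2 or Wnt2 library 2.

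Endothelial genes fell in 8 of 22 with none higher (median -1.99), and none of the 8 remained called without Negative library 2. The adhesion gene Pecam1 was at 10.92 and 11.47 against 12.62 and 14.30 (-2.26 ± 0.51, adjusted p = 0.0155, and 0.132 without Negative library 2), and VE-cadherin, Cdh5, at 12.33 and 13.40 against 14.08 and 15.53 (-1.94 ± 0.43, adjusted p = 0.0151, likewise 0.132). Negative library 2 was the highest of the 4 in both genes, and the list median was 10.86 and 10.10 against 11.17 and 13.00. The count was 4 without either Axin2:Pdgfra library and 5 without any 1 of the 6 libraries of the other groups. Of 7 erythroid genes 4 fell, all of them globins (median -6.71). Hbb-bs was at 6.85 and 5.93 against 15 and 14.62 (adjusted p = 0.000591). Both Negative libraries held it at a level more than 7 log2 units above either Axin2:Pdgfra library. The near-identical copies of the globin genes make the split of reads between them uncertain, and the count of 4 was 1 without Axin2:Pdgfra library 1 and 2 without any other 1 of the 4. Red-cell RNA carried over into the Negative sort was not tested as a source. Of 17 myeloid genes 1 fell, Tyrobp, whose call ended without any 1 of 8 libraries (up to 0.203), and none of 9 lymphoid genes was called, with 2 of the 9 above 0. Ptprc, the pan-leukocyte CD45 gene, was at 4.55 and 9.37 against 7.30 and 8.17.

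**Figure D5:**
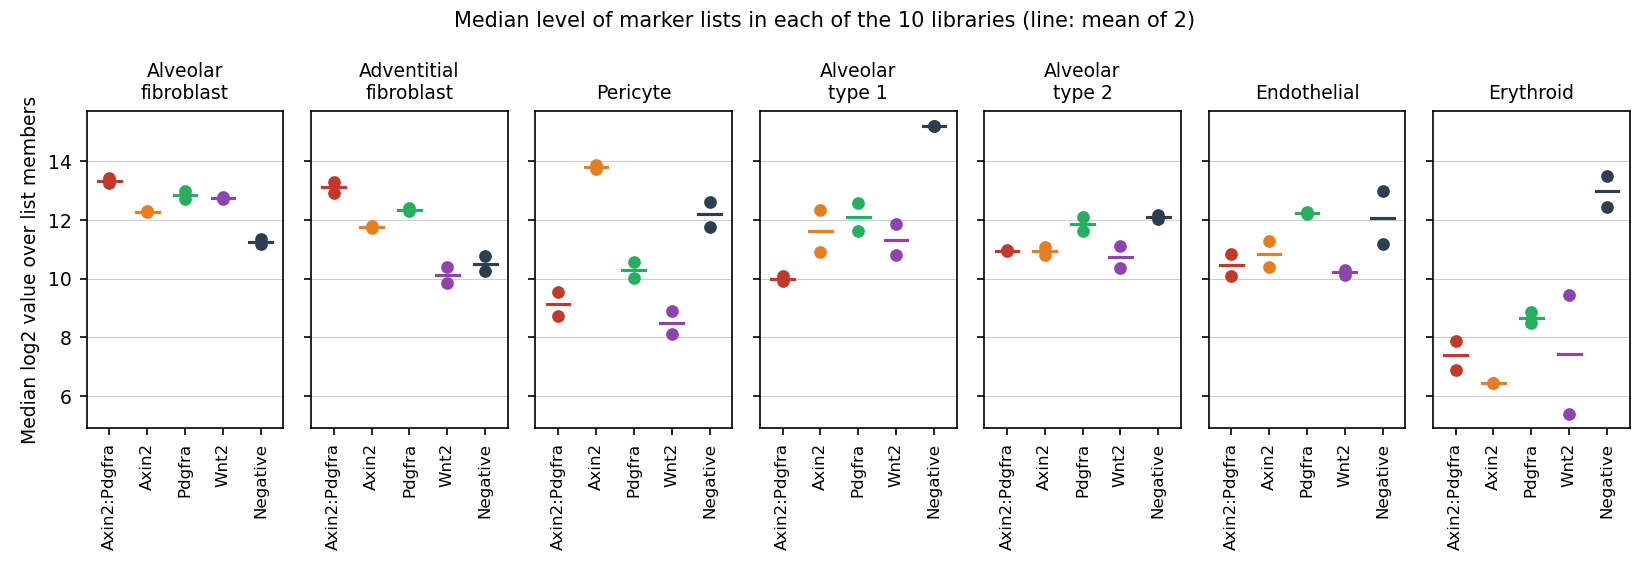
Median deposited log2 value over the tested members of 7 marker lists in each of the 10 libraries, 1 point per library and a line at the mean of each group's 2. The alveolar type 1 medians of the Negative libraries (15.21 and 15.19) and their erythroid medians (13.50 and 12.45) are above those of the other 8 libraries, and the fibroblast medians of the Axin2:Pdgfra libraries are the highest of the 10.

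Some called genes were at the lowest value in both libraries of a group, 33 on the higher side and 49 on the lower. For these no fold is given. The 6 with the highest level in Axin2:Pdgfra cells were 6330403K07Rik (10.26 and 12.08), the protease Pappa2, which releases IGF from its binding proteins (10.88 and 10.71), the cytochrome Cyp1b1 (11.08 and 10.47), the ciliary neurotrophic factor receptor Cntfr (10.55 and 10.68), Gli1 and the kinase Dclk1 (9.87 and 10.95). Pappa2, Gli1 and Dclk1 kept the call. 6330403K07Rik lost it without Axin2:Pdgfra library 2 (0.0818), Cyp1b1 without either Axin2:Pdgfra library (up to 0.0854) and Cntfr without any 1 of the 4 (up to 0.100). The 6 with the highest level in Negative cells were Spint1, an inhibitor of epithelial serine proteases (11.76 and 11.29), the riboflavin transporter Slc52a3 (12.22 and 10.28), the protease-activated receptor F2rl1 (12.55 and 9.73), Shtn1 (10.79 and 10.94), the tight-junction protein Marveld3 (10.72 and 10.83) and the flagellin receptor Tlr5 (11.03 and 10.44). Spint1, Slc52a3 and Shtn1 kept the call. F2rl1 lost it without Negative library 0 (0.0520), Marveld3 without either Axin2:Pdgfra library or Negative library 2 (up to 0.0682) and Tlr5 without any 1 of the 4 (up to 0.0630).

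The cells with a single label give a reference for these differences. They share the Negative libraries with the comparison above, so their own differences from Negative are set beside it without a measure of overlap, and the direct contrasts are tested. Against Axin2 cells, 326 genes were called (2.3%), 131 higher (0.924%) and 195 lower (1.38%) in Axin2:Pdgfra cells. Against Pdgfra cells, 6 were called (0.0423%), all lower. Against the shared Negative libraries, 85 genes were called for Axin2 cells (0.6%, with 0.24% higher and 0.36% lower) and 412 for Pdgfra cells (2.91%, with 2.03% higher and 0.875% lower). The count of Axin2:Pdgfra against Axin2 cells was 35 without Axin2 library 2, 99 without Axin2 library 1, 145 without Axin2:Pdgfra library 2 and 217 without Pdgfra library 1. That of Axin2:Pdgfra against Pdgfra cells was 0 without Pdgfra library 1, between 11 and 57 without Pdgfra library 2 or any 1 of the 4 Axin2:Pdgfra and Negative libraries, and 268 under housekeeping centring, so the count depends on the scaling and on single libraries, and a small count does not show that the 2 groups are alike.

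Among the fibroblast genes given above, Dcn was at 12.55 and 11.88 in the Axin2 libraries and at 14.21 and 14.97 in the Pdgfra libraries. The direct difference was 2.86 ± 0.54 from Axin2 cells (adjusted p = 0.0123) and 0.48 ± 0.54 from Pdgfra cells (0.744). The call against Axin2 cells ended without either Axin2:Pdgfra or either Axin2 library (up to 0.169). Hhip, a Hedgehog gene, was at 10.28 and 8.64 in the Axin2 libraries and at 13.69 and 13.68 in the Pdgfra libraries, with direct differences of 4.81 ± 0.73 (adjusted p = 0.00342, and 0.0716 without Axin2 library 2) and 0.59 ± 0.73 (0.770). In both genes the Axin2 libraries lay apart from the Axin2:Pdgfra libraries, and the Pdgfra libraries lay near them. Of 28 alveolar fibroblast genes 6, and of 22 adventitial genes 4, were called higher than in Axin2 cells, and none of either list was called against Pdgfra cells, with medians of 0.33 and 0.90. Leaving out 1 library gave 1 to 8 and 0 to 8 called against Axin2 cells, the lowest counts without Axin2 library 2 for the first list and without any 1 of the 4 Axin2:Pdgfra and Axin2 libraries for the second. The immediate early genes Egr1 and Zfp36 differed from Axin2 cells by 1.08 ± 0.19 (adjusted p = 0.00919) and 1.56 ± 0.24 (0.00400) and from Pdgfra cells by 0.05 ± 0.19 (0.936) and 0.07 ± 0.24 (0.932). The call of Egr1 against Axin2 cells ended without Axin2:Pdgfra library 2 or either Axin2 library (up to 0.0970), and that of Zfp36 without Axin2 library 1 (0.0585).

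Mural genes set Axin2 cells apart in the other direction. Pdgfrb was at 16.32 and 16.94 in the Axin2 libraries, above the Negative libraries, and the direct difference of Axin2:Pdgfra from Axin2 cells was -3.99 ± 0.31 (adjusted p = 1.69e-05). Acta2 was at 16.28 and 16.25 there, a direct difference of -3.54 ± 0.66 (adjusted p = 0.0114). The Pdgfrb call held in all 10 fits with 1 library left out, and that of Acta2 ended without Axin2:Pdgfra library 2 or either Axin2 library (up to 0.132). Neither gene separated Axin2:Pdgfra from Pdgfra cells, with differences of 0.08 ± 0.31 (adjusted p = 0.942) and 1.40 ± 0.66 (0.397). Of the pericyte list, 15 of 19 were lower in Axin2:Pdgfra than in Axin2 cells, and of the contractile list 6 of 17. Without Axin2 library 2 these counts were 9 and 1, and without Axin2 library 1 or Axin2:Pdgfra library 2 the contractile count was 2 and 3. Alveolar type 1 genes were lower than in Negative cells in both single-label groups as well, with list medians of -3.09 for Axin2 and -3.06 for Pdgfra cells beside -4.72 for Axin2:Pdgfra cells. The direct contrasts called 2 of the 16 lower against Axin2 and 1 against Pdgfra cells, and none without Axin2:Pdgfra library 2 in either contrast.

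The 6 genes lower than in Pdgfra cells, named after their values were seen, were Epas1, the hypoxia-inducible factor HIF-2 alpha, Neat1, the architectural RNA of paraspeckles, Il18r1, Sema6d, Pcdh1 and Akap5. Epas1 was at 13.27 and 13.18 in the Axin2:Pdgfra libraries and at 15.92 and 15.56 in the Pdgfra libraries (-2.52 ± 0.31, adjusted p = 0.00519), and at 15.68 and 16.74 in the Negative libraries (-2.99 ± 0.31, adjusted p = 0.000127). Sema6d, a transmembrane semaphorin, was at 9.11 and 9.57 against 13.10 and 12.13 in Pdgfra and 13.78 and 14.16 in Negative libraries, with differences of -3.27 ± 0.45 and -4.63 ± 0.45. Both genes were lower in Axin2:Pdgfra cells than in Pdgfra and Negative cells. Against Axin2 cells the direct differences were -2.43 for Epas1 (limma adjusted p = 0.0012) and -3.69 for Sema6d (0.000827). Il18r1, Pcdh1 and Akap5 were also called lower than in Axin2 cells, and Neat1 was not called there. That call of Akap5 ended without either Axin2:Pdgfra or either Axin2 library. Neat1 was at 13.40 and 13.77 against 16.58 and 16.14 in Pdgfra libraries (-2.78 ± 0.28, adjusted p = 0.00131) and 14.96 and 14.42 in Negative libraries (-1.11 ± 0.28, adjusted p = 0.0286), the latter call ending without either Axin2:Pdgfra library or Negative library 0 (up to 0.150). All 6 calls against Pdgfra cells ended without Pdgfra library 1, where the adjusted p was 0.146 for Neat1, 0.389 for Epas1 and Il18r1, 0.624 for Sema6d and Pcdh1 and 0.658 for Akap5, and none remained without the trend and robust steps. The calls of Neat1, Epas1, Sema6d and Il18r1 held without any other 1 library, and those of Pcdh1 and Akap5 ended without any 1 of 5 and of 4 libraries.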

How the data were processed

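RNA-seq of 10 sorted libraries was deposited as 1 table per library. The deposited values are read here as log2 values, since each library runs from a lowest value of 1.0 to 2.67 up to 19.25 with near-equal medians. Per the submitters' processing notes the authors used STAR, limma and the mouse build mm9. Tool versions, the counting program, the annotation and the log base were not given in the sources used here. Near-equal distributions between libraries point to a between-library normalization by the authors, which removes differences in total RNA. No counts are in the tables, so the depth per library is unknown and no counting interval can be given.

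All 10 libraries were fitted in limma 3.58.1 (R 4.3.3) with 1 mean per group and moderated variances with an intensity trend and robust estimation, on 5 residual degrees of freedom. Genes entered with a value of 6 or more in at least 2 libraries, 14177 of 14854, and 14054 of those tested have a symbol. The p-values were adjusted over all 14177 genes by the Benjamini-Hochberg method, with a threshold of 0.05. The code was tested on simulated data.

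The members and the 48 gene lists (716 tested entries) were chosen with earlier results of these data known. Named genes are the label genes, the 12 largest called differences each way with the higher group's mean at 10 or more and no library at its lowest value, the 6 highest genes each way with the other group at the lowest value, and up to 4 called members per list by adjusted p. Other members named, described by role or to show what a count rests on, were chosen after their values were seen. Some genes that meet the rule are not reported here. Alternatives were other filters, a common floor for lowest values, the 4 compared libraries alone, limma without trend and robust steps, housekeeping centring, repeated quantile normalization, the second sequencing index as a covariate, a replicate block and leaving out each library. Upstream sequences came from the RefSeq table for GRCm38.p6.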

Additional observations from a re-analysis of the deposited data

How the results depend on the processing

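The count of 953 genes between Axin2:Pdgfra and Negative cells lay between 879 and 1001 under 6 settings (no filter, a filter at 8, a common floor, housekeeping centring, repeated quantile normalization and the second index as a covariate). It was 435 (182 higher, 253 lower) when only the 4 libraries compared were fitted, and 364 (167 higher, 197 lower) without the trend and robust steps. Leaving out 1 library gave 519 to 1226 genes, with 213 to 808 higher and 275 to 418 lower. Of the 238 called genes followed singly, 121 kept the call in all 10 such fits and 67 in all alternatives run, and none reversed. The setting with the most losses was the fit without the trend and robust steps (154). Axin2 itself, not called, went from 0.43 to -0.82 without Axin2:Pdgfra library 1 and to 1.68 without library 2.

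Against Axin2 cells the count of 326 (131 higher, 195 lower) was 156 (53 and 103) with only the 4 libraries, 95 (26 and 69) without the trend and robust steps and 199 (74 and 125) with housekeeping centring, and the higher count was 87 with the second index as a covariate. Leaving out 1 library gave 35 to 473 (13 to 233 higher, 22 to 240 lower). Against Pdgfra cells the count of 6, all lower, was 14 with a filter at 8, 2 with only the 4 libraries, 0 without the trend and robust steps, 268 with housekeeping centring and 11 with the second index, all of them lower. Leaving out 1 library gave 0 to 57 (0 to 6 higher, 0 to 53 lower). The cause of these changes was not tested.

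No paired analysis was possible because Axin2:Pdgfra libraries are numbered 1 and 2 and Negative libraries 0 and 2, which share 1 number. For the other contrasts a replicate block gave 423 genes (224 higher, 199 lower) against Axin2 cells and 45 (3 higher, 42 lower) against Pdgfra cells. Deviations of same-numbered libraries correlated at -0.061 to 0.028 over the pairs of groups, so the numbers are not taken as pairing the samples. With no counts in the tables, how far depth limits low genes is unknown, and differences that end at a library's lowest value are not measured ratios.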

Other observations

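Further groups of genes completed the comparison of Axin2:Pdgfra with Negative cells. Among 8 IGF binding proteins and receptors 3 rose and 1 fell (median difference 0.55, against 0.08 over all tested genes). Igfbp3, which binds IGF in the extracellular space, was at 15.21 and 14.79 against 12.88 and 12.20 (2.46 ± 0.31, limma adjusted p = 0.000403). Its libraries did not overlap between the groups. The calls of Igfbp5 (2.96 ± 0.69) and Igfbp2 (-5.31 ± 1.38) ended without any 1 of 3 and of 6 libraries (adjusted p up to 0.138 and 0.147). Of 11 genes of prostaglandin synthesis and reception 2 rose and 1 fell (median 1.28). Ptgis, the prostacyclin synthase, was at 13.53 and 13.33 against 10.56 and 9.99 (3.15 ± 0.44, limma adjusted p = 0.000755), again with no overlap. Hpgd, which degrades prostaglandins, was called lower and lost the call in 9 of 10 fits with 1 library left out (up to 0.269).

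Of 23 transcription factors of lung mesenchyme 3 rose and none fell (median 0.67). Tcf21 kept its call, and Meox2 and Prrx1 lost theirs without either Axin2:Pdgfra library and others (up to 0.150 and 0.285). Of 8 mesothelial genes 2 fell and 1 rose. Gpm6a was at 1.70, the lowest value of the library, and 5.08 against 11.56 and 11.55 (adjusted p = 0.00227), while Upk1b moved the other way and lost its call without any 1 of 8 libraries (up to 0.200). Heat shock genes held 1 call of 15 (Xbp1, lost without Axin2:Pdgfra library 2 at 0.0748) and interferon response genes 1 of 18 (Gbp2, lost without any 1 of 7, up to 0.227). No gene of 13 in the cell cycle list was called by limma, with 1 at an unadjusted p under 0.05. Of 5 platelet genes 2 fell (Ppbp and Itgb3) and of 7 Schwann cell and neuronal genes 1 (Sox10). All 3 calls ended without Axin2:Pdgfra library 1 or Negative library 2 (up to 0.194). Of the 28 genes used for housekeeping centring 2 were called higher, Tubb5 and Psmb4, and both calls ended without either Axin2:Pdgfra library.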
